A study of Mus musculus with 21 samples.

Results

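The genes described here were expressed in parental murine pancreatic ductal adenocarcinoma (PDAC) cells, were lost when the cells became resistant to the MEK inhibitor trametinib, and were still low after 12 passages without the drug. A gene was counted when the mean of its 6 Parental samples was at least 50 normalized counts and when its log2(normalized count + 1) was lower than in the Parental sample of the same line by at least 1 in at least 5 of 6 lines, both in Resistant and in P12 cells. This held for 209 of the 34478 genes in the table and of the 12655 genes with a mean Parental value of at least 50. Of 861 genes that were lost in resistant cells by this measure, 24.3% were also low in P12, and the other 652 were not. The differences of Resistant and P12 from Parental therefore chose the genes, and they are given below as a description with no test.

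RNA was sequenced from 6 primary murine PDAC cell lines, numbered #3, #4, #6, #7, #9 and #10, in 21 samples. All lines carry a pancreas-directed Cre (Ptf1a wt/Cre) and a floxed Trp53 (Trp53 loxP/loxP), so these alleles are shared by every group. Parental cells (6 samples) had no inhibitor, Resistant cells (6 samples) grew in trametinib at 100 times the IC50, and P12 cells (6 samples) were Resistant cells kept without it for 12 passages. P5 cells (3 samples, lines #3, #7 and #9) were withdrawn for 5 passages, although a second label gives 12 passages for P5 of lines #7 and #9. There is 1 library for each line and state, which makes the lines the replicates. The study describes the resistant population as the outgrowth of a single clone, from genome sequencing of lines #3 and #9 only. Depth was estimated at 24.1 to 42.7 M reads per sample, and 3 reads, taken as the floor, corresponded to 2.31 to 4.07 normalized counts, which covers counting error only.

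Trametinib blocks MEK, the kinase that activates ERK. Epithelial cells are held together by tight junctions, built from claudins, occludin and tricellulin, and by adherens junctions, built on E-cadherin, and ductal identity in the pancreas rests on transcription factors such as Pdx1, Hnf4a and Foxa3. Loss of these genes with a gain of mesenchymal genes is known as epithelial to mesenchymal transition. Genes that stay silent after a signal has ended are often studied for DNA methylation at CpG dinucleotides of their promoters.

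The Parental sample of line #9 stood apart from the others in these genes. It held the lowest Parental value for 149 of the 209 genes, 105 of them were under 50 normalized counts there, and 40 were at or under the floor. Its epithelial marker Krt8 was at 546 normalized counts, against 73967 to 92917 in the other 5 Parental samples. Its Col3a1, a fibroblast collagen, was at 14413 against 0.51 to 52.6. Krt18 and Krt19 were also lowest in line #9, and Col1a1 and Col1a2 highest. Krt18 was at 11363.5 against 55390.6 to 86547, and Col1a1 at 4650 against 42.5 to 797.5. Sox9 and Dcn did not go this way. Epithelial Sox9 was highest in line #9, at 2421 against 673 to 1921. Fibroblast Dcn was at 2.9, within the 0.94 to 19.8 of the other lines. Without line #9, and asking for 4 of the other 5 lines, 364 genes met the rule, 205 of the 209 among them. This rise was not particular to line #9. The same looser rule gave 356 genes without line #7, 362 without #10, 267 without #3, 276 without #4 and 238 without #6. Asking for all 5 lines other than #9 gave 103.

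**Figure D1:**
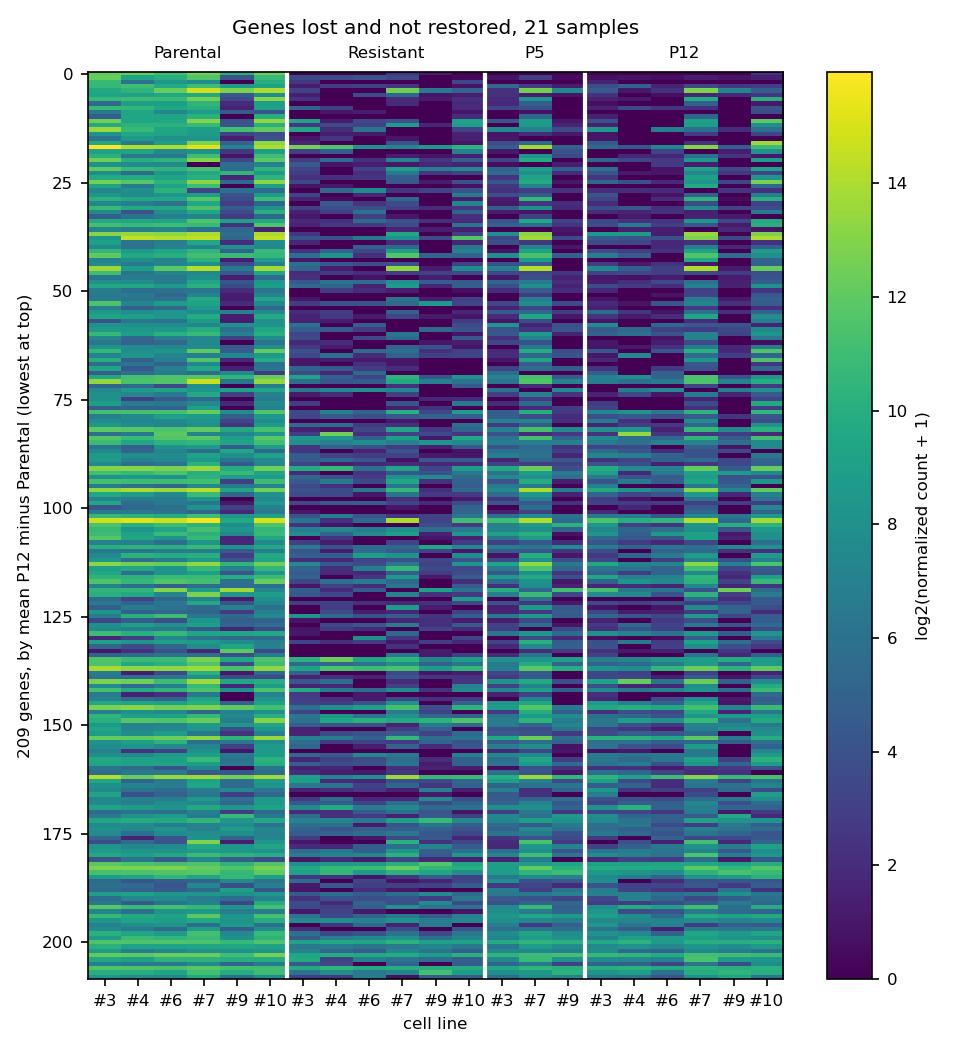
Log2(normalized count + 1) of the 209 genes (rows, ordered by the mean P12 minus Parental difference, lowest at the top) in the 21 samples (columns, grouped by state and labelled by cell line). The Parental columns are bright apart from line #9, the Resistant columns are dark, and of the samples without the drug those of lines #7 and #10 are the brightest.

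In Resistant cells the median over the 209 genes of the mean difference from Parental was -4.33 on the log2 scale, and in P12 it was -3.24, while over all 19300 expressed genes the medians of the same differences were -0.0049 and 0.03. The P12 difference was -4 or lower for 59 genes, between -4 and -2 for 122 and above -2 for 28. All 6 lines met the rule in Resistant for 119 genes, in P12 for 60 and in both for 47. A limma call needed an adjusted p under 0.01 and a log2 difference past 1, and calls on these same differences follow from how the genes were chosen, so nothing is read from them. They were 91 of the 209 lower in Resistant, where 2.73% of all genes tested were lower and 2.57% higher, and 12 lower in P12, where 0.0881% of all genes were lower and 0.0259% higher. The counts moved to 177 and 40 with cell line added as a block, where 1081 and 60 of all 19300 genes were lower. With 1 line left out the members called ran from 43 (without #4) to 118 (without #9) in Resistant. Of all genes 256 and 657 were lower there. In P12 the members called ran from 3 (without #3 or #6) to 32 (without #9), beside 3 and 46 of all genes. At the P12 edge of the rule, the fifth-lowest line was at -1.01 for Clca1, at -1.01 for Arg1 and at -1.02 for Mogat2, which were inside. It was at -0.997 for Plek2, -0.99 for Ugt2b35 and -0.989 for Paqr8, which met every other part of the rule and were outside. In bulk RNA, fewer cells that express a gene and less RNA per cell cannot be told apart.

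The share of the Resistant difference that was kept in P12, as the mean P12 difference over the mean Resistant difference, had a median of 79.4% with quartiles of 60.5% and 97.1%. It was at least 100% for 45 genes, from 50% to 100% for 130 and under 50% for 34. P12 lay above Resistant in 6 of 6 lines for 33 genes and in none for 1, Sox17, an endoderm transcription factor. Thus the genes ran from those at the Resistant level or below it to those that had come back in part and still missed the Parental level. The fit called 4 of the 209 genes higher in P12 than in Resistant at an adjusted p under 0.01. The background was 1.28% of all genes tested, and Cdx2, Sigirr and Ccdc3 were among the 4. None was lower, beside 0.85%. With cell line added as a block 17 were called higher, beside 486 of all 19300 genes. These counts are descriptions, since the rule used both states.

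**Figure D2:**
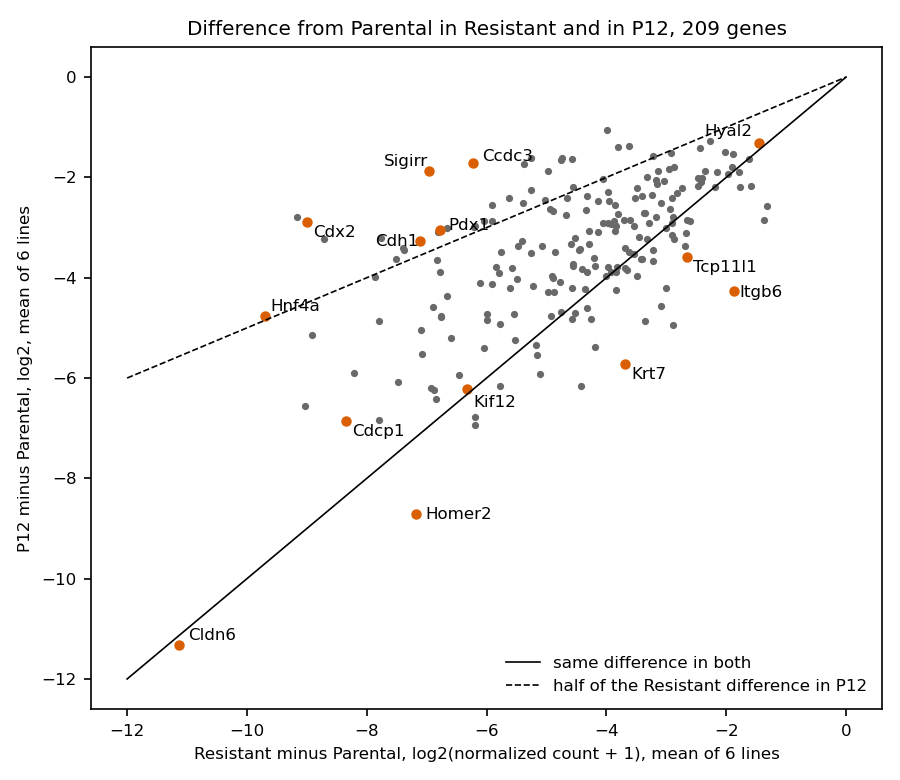
Mean P12 minus Parental difference against mean Resistant minus Parental difference, both on the log2(normalized count + 1) scale over 6 lines, for the 209 genes (points, some named). Points on the solid line have the same difference in both states, as Cldn6 does with -11.14 and -11.33, and points above the dashed line kept less than 50%, as Cdx2 and Sigirr did.

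The lines differed in how low the genes stayed. In Resistant the median over the 209 genes was -5.01 in line #3, -4.81 in #4, -5.25 in #6, -4.37 in #7, -2.53 in #9 and -4.44 in #10. In P12 it was -3.87 in line #3, -3.89 in #4 and -4.55 in #6, but -2.15 in #7, -2.02 in #9 and -1.96 in #10. Counting in each line the genes lost there, the median share kept in P12 was 95.3% in line #4 and 96.5% in line #6, 80.5% in #3 and 87.6% in #9, 63.2% in #7 and 48.3% in #10. With 1 sample per line and state these differences between lines were not tested. The rule lets each gene miss in 1 line, and of 149 genes that missed in P12, 49 missed in line #9, 39 in #10, 38 in #7, 14 in #3, 7 in #4 and 2 in #6. In line #9, 50 of the 209 genes were not lower by 1 in Resistant either.

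**Figure D3:**
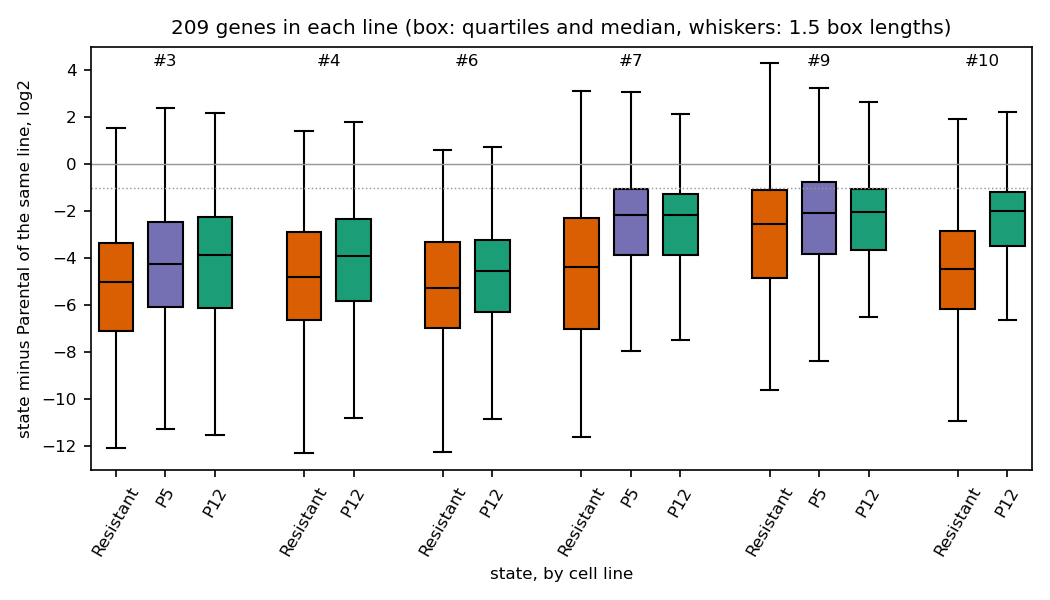
Difference of each state from the Parental sample of the same line over the 209 genes, on the log2 scale, by cell line (box for quartiles and median, whiskers to the last gene within 1.5 box lengths, the dotted line at -1 for the threshold of the rule). The P12 medians of lines #3, #4 and #6 lie between -4.55 and -3.87, and those of lines #7, #9 and #10 between -2.15 and -1.96.

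The P5 samples were not used to choose the genes, though the Parental and Resistant samples they are compared with were. The study took P5 and P12 of a line from the same withdrawn batch. The counts below are therefore not independent of the rule and are a description. In P5 the median of the difference from Parental in the same line was -4.24 in line #3, -2.15 in #7 and -2.08 in #9, and the median over the genes of the mean of 3 lines was -2.98. All 3 lines were lower by at least 1 for 93 of the 209 genes, against 1.69% of the 12655 genes with a mean Parental value of at least 50. A further 105 were this low in 2 lines, 10 in 1 line, and 1 in none. In the limma fit across all genes, 4 genes in all were lower in P5 than in Parental at an adjusted p under 0.01, or 0.0207% of the genes tested, and all 4 are among the 209: Cldn6, Cdcp1, Tcp11l1 and Kif12. No member was called higher, beside 0.00518% of all genes. With an unadjusted p under 0.05, 112 of the 209 were lower and none was higher, beside 10.4% of all genes in either direction. The call stood in every alternative tried for Cldn6, and without line #7 it was the only one of the 209 that was called. Without line #9 the calls were Cldn6, Homer2, Sox17 and Tcp11l1, so that Cdcp1 and Kif12 lost theirs. With P5 of line #3 alone, whose labels agree, Cldn6 was called, but this arm has 1 sample, which is assumed to vary like the other groups.

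P5 and P12 could not be told apart in these genes. None of the 209 was called between them by limma, beside 0% of all genes in either direction, and none had an unadjusted p under 0.05, against 130 of all 19300 genes. The fitted difference ranged from -2.66 to 2.12 over the 209 genes with a median SE of 1.36, so that changes of several fold in a gene would have been missed. In the same line the median P5 minus P12 difference was -0.15 in #3, 0.12 in #7 and 0 in #9. Of the genes named by rule, those with the highest mean P5 minus P12 difference were Acsm3, an acyl-CoA synthetase, with 8.61, 51.7 and 25 normalized counts in P5 of lines #3, #7 and #9 against 4.46, 15.6 and 0 in P12, and the integrin gene Itgb6, with 36.5, 93.9 and 3.13 against 1.29, 63.2 and 1.78. Tmem102 and the homeobox gene Hoxa13 followed, at 22.8 normalized counts or less in these P5 samples.

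Cldn6 was the member with the lowest P12 difference. It encodes claudin 6, a tight junction protein of embryonic and early epithelia, and lies at chr17:23679249-23682446 on the plus strand (mm10, GENCODE M21). Parental samples ran from 1048 to 5971 normalized counts with a median of 4616. Resistant samples were at 0 in 4 of 6 lines, with 4.07 in line #7 and 1.26 in line #9. All 3 P5 samples were at 0, and P12 samples were at 0 apart from 4.15 in line #10. The groups did not overlap. Against the 3-read floor, its mean P5 level was at least 1258-fold lower than the mean Parental level of the same 3 lines. The bound is smaller for line #9 alone, whose Parental value was 1048. The fitted P5 minus Parental difference was -11.73 (SE 0.66, adjusted p = 2.94e-09, limma).

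Cdcp1, a transmembrane glycoprotein gene at chr9:123170824-123216038, had 400 to 2141 normalized counts in Parental with a median of 1228. It had 0 to 7.67 in Resistant, 44.5, 6.18 and 1.37 in P5 of lines #3, #7 and #9, and 2.06 to 29.5 in P12 with a median of 8.45. P12 was above Resistant in 5 of 6 lines, and every P12 sample stayed far under every Parental sample. The P5 minus Parental difference was -6.87 (SE 0.89, adjusted p = 0.00161, limma), and the adjusted p was 0.084 without line #7 and 0.0132 without line #9. The call was also lost with the compared states alone (0.0815), with the block in lines #3, #7 and #9 only (0.0372) and with P5 of line #3 alone (0.31).

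Tcp11l1, at chr2:104657288-104712169, was the most uniform of the 4, with an SD over lines of 0.36 for its P12 difference of -3.58. Its Parental samples had 632 to 2158 normalized counts and its Resistant samples 123 to 334. The P5 samples had 113, 101 and 130, and the P12 samples 57.7 to 192. P12 was under Resistant in 4 of 6 lines, and the P12 and Resistant samples overlapped. The P5 minus Parental difference was -3.42 (SE 0.45, adjusted p = 0.00161, limma). Leaving out line #3, #6 or #7 ended the call. So did the compared states alone (adjusted p = 0.0613, limma) and the block in lines #3, #7 and #9 only (adjusted p = 0.205, limma). With P5 of line #3 alone the difference was -3.44.

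Kif12, a kinesin motor gene at chr4:63165630-63172131, had 18 to 706 normalized counts in Parental with a median of 135. All 6 Resistant samples and all 3 P5 samples were at or under the floor, as were 5 of 6 P12 samples, with 12.3 in line #10. The P5 minus Parental difference was -6.58 (SE 1.01, adjusted p = 0.00986, limma). It stayed past the threshold in 2 of 15 alternatives, and its adjusted p was 0.0466 (limma) once cell line was added as a block.

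The windows from 250 bases before to 50 after the start are shown for these 4 genes. These are the members that limma called lower in P5 than in Parental. The windows of Cdx2 and Ccdc3 are added, the only 2 that limma called higher in P5 than in Resistant. The rule used the Parental and Resistant samples, so the calls served only to choose the windows. The sequences are those of RefSeq on GRCm38.p6, 5′ to 3′ in the direction of the gene, with each CpG dinucleotide in capitals.
Cldn6 promoter, chr17:23679115-23679414, + strand: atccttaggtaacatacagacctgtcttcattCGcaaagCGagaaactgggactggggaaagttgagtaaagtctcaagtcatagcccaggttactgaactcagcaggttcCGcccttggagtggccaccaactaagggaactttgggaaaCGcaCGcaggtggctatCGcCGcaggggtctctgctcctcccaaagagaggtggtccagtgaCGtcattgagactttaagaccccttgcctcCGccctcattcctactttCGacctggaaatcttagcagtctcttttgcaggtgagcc
Cdcp1 promoter, chr9:123215989-123216288, - strand: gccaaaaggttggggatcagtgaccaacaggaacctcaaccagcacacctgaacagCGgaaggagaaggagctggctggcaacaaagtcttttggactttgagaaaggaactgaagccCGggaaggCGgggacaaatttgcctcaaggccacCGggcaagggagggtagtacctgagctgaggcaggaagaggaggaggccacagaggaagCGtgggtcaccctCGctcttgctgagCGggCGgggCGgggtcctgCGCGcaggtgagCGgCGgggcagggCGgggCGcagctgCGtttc
Tcp11l1 promoter, chr2:104712113-104712412, - strand: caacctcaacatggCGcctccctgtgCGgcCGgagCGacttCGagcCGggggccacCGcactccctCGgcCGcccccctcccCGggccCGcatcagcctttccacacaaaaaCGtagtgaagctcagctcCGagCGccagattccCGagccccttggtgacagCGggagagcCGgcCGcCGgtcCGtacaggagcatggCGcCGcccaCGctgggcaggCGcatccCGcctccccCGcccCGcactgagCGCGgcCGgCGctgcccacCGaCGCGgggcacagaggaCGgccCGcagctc
Kif12 promoter, chr4:63172082-63172381, - strand: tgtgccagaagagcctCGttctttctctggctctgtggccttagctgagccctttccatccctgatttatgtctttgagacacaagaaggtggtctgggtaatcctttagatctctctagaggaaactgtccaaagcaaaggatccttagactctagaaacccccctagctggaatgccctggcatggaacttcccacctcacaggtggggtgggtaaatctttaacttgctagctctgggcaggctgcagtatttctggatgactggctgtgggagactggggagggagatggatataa
Cdx2 promoter, chr5:147307200-147307499, - strand: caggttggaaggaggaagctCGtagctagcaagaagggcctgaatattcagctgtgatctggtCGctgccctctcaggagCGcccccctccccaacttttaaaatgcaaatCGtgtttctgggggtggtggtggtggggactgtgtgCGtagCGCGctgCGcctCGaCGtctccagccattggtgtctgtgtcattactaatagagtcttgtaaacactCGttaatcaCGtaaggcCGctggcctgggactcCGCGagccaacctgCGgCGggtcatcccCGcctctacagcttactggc
Ccdc3 promoter, chr2:5137526-5137825, + strand: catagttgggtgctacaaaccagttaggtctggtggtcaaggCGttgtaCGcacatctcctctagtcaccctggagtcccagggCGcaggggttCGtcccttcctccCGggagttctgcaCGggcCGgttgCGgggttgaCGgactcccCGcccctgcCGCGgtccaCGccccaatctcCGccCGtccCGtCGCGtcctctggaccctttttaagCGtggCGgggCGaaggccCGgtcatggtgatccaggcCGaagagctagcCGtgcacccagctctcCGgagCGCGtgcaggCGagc
The windows held 10 CpG in Cldn6, 16 in Cdcp1, 36 in Tcp11l1, 1 in Kif12, 18 in Cdx2 and 28 in Ccdc3, where the 15758 windows of all expressed genes had a median of 18 and quartiles of 8 and 27. The 4 lost genes thus span nearly the whole range of CpG content, from Kif12, with as many CpG or fewer in 3.95% of all windows, to Tcp11l1 with 90.4%. The letters CACCTG, read on both strands, which ZEB and SNAI repressors bind, stood in the windows of Cldn6, Cdcp1 and Kif12, and in 18.8% of all windows. The AP-1 letters TGANTCA stood in none of these 6 and in 5.93% of all windows. A match or its absence describes these letters only. A comparison over all 209 genes is void, since only 68.4% of them could be matched to such a window.

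Cdx2 and Ccdc3 were at the other end. Cdx2, an intestinal homeobox transcription factor gene at chr5:147300805-147307270, had 670 to 2086 normalized counts in Parental. In Resistant it was at 0 in 4 lines, at 1.03 in line #3 and at 40.7 in line #7. P5 had 76.7, 360 and 48.1 in lines #3, #7 and #9, and P12 had 27.9 to 381 with a median of 207. Every sample without the drug lay between its Parental and Resistant samples. The P5 minus Resistant difference was 5.73 (SE 1.04, adjusted p = 0.00753, limma). Ccdc3, which encodes a secreted coiled-coil protein, at chr2:5137776-5230878, had 55.4 to 397 in Parental, 0 to 8.15 in Resistant and 12.1 to 314 in P12. Its P5 samples had 229, 93 and 35.2, and the P5 minus Resistant difference was 5.48 (SE 0.91, adjusted p = 0.0038, limma). These were 2 of the 209 genes, beside 0.29% of all genes tested, and none was called lower, beside 0.0881%. At an unadjusted p under 0.05, 34 of the 209 passed in either direction, a share near the 15.4% of all genes. All 34 were higher in P5 and none was lower. The share of all genes that were higher alone was not computed, so nothing is read from the direction. Leaving out line #3, #6, #9 or #10 ended both calls. Leaving out line #4 ended the call of Cdx2, and leaving out line #7 that of Ccdc3. Adding cell line as a block left 1 of the 2 called, Cdx2 (adjusted p = 0.00697, limma). Rescaling to the upper quartile of each sample, which put the median of all genes at 0.13 for P5 minus Resistant in place of 0.03, kept both calls.

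**Figure D4:**
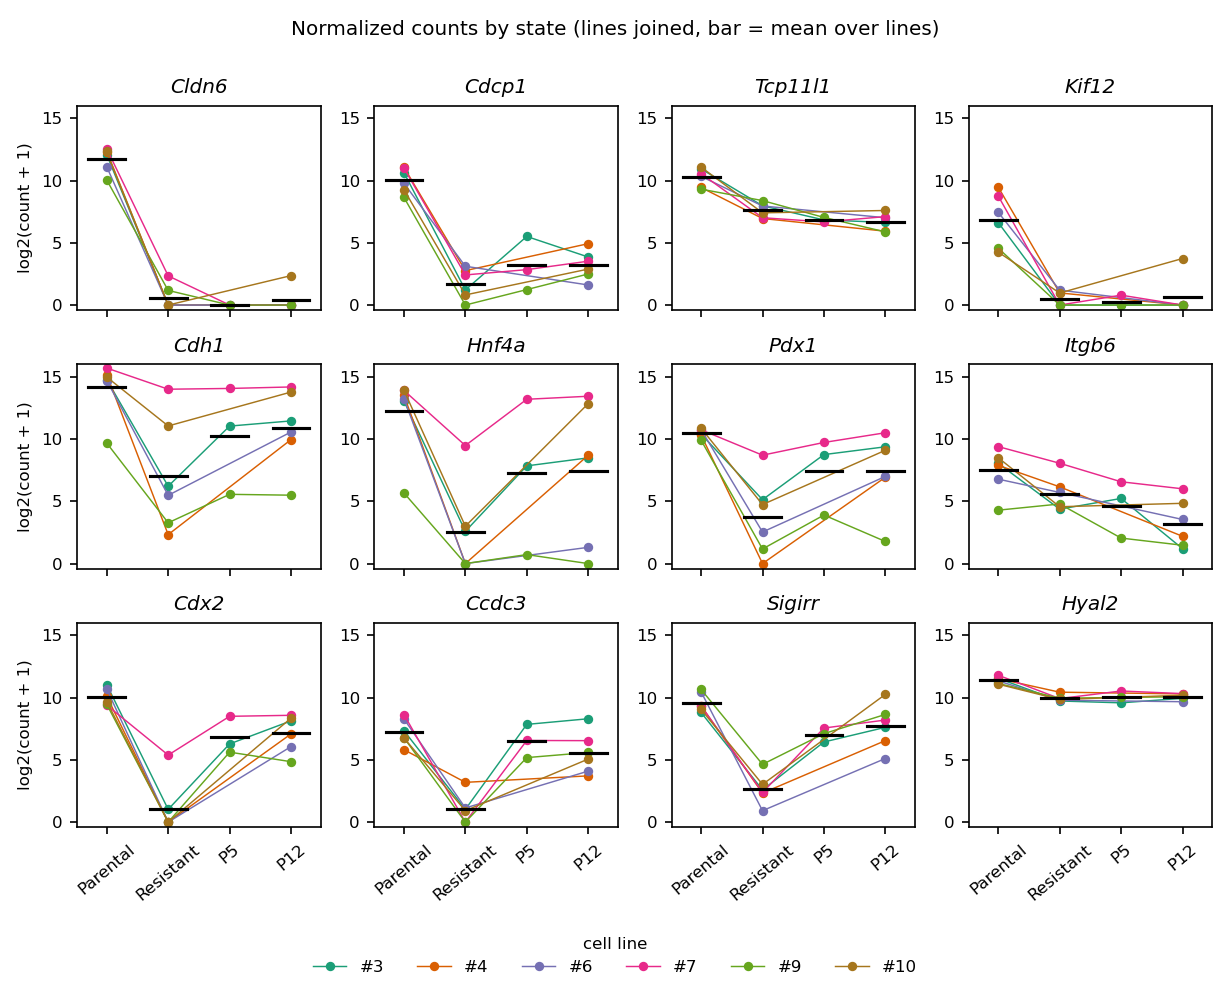
Log2(normalized count + 1) in the 4 states for 12 of the genes, with 1 point per sample, the points of a cell line joined (lines without a P5 sample run straight from Resistant to P12) and a bar at the mean. Cldn6, Cdcp1, Tcp11l1 and Kif12 lie below every Parental point in all other states, Cdx2, Ccdc3 and Sigirr rise in P5 and P12 in every line measured, and Hnf4a and Cdh1 part by line.

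Junction and adhesion proteins made up 12 of the genes. Their median difference was -6.61 in Resistant, -4.49 in P12 and -3.68 in P5, and 5 of 12 kept at least 100% while 3 kept under 50%. In P5, 10 of the 12 were low in 3 of 3 lines. Among claudins, Cldn4 and Cldn7, which seal and shape the paracellular barrier and are named here after their values were seen, were at or under the floor in all 6 Resistant samples. Their P12 samples ran up to 8.3 normalized counts for Cldn4 and 12 for Cldn7, against Parental medians of 367 and 166. These 3 claudins were 20% of the 15 expressed claudins, where 1.08% of all expressed genes were members. Expressed genes could lie under the Parental minimum of 50. Claudins and keratins had the highest shares of the families counted, and 27 expressed serpins and 31 interleukin receptors held no member.

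Ocln, which encodes occludin, had 526 to 2969 normalized counts in Parental and 2.81 to 49.2 in Resistant. In P12 it was at 3.86 to 11.2 in lines #3, #4, #6 and #9 but at 355 in line #7 and 846 in line #10, where the Parental value was 777. Marveld2, which encodes tricellulin, lies next to Ocln on chromosome 13 and had a Parental median of 622, a Resistant median of 29.6 and a P12 median of 8.88. Of the 21 other expressed genes in a list of tight junction genes, 1 was lower and none higher in Resistant, and none was called in P12, with median differences of -1.02 and -1.49.

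Cdh1, which encodes E-cadherin, had 26491 to 53229 normalized counts in 5 Parental samples and 816 in line #9. In Resistant it was at 4.01 to 73.1 in lines #3, #4, #6 and #9, at 2120 in line #10 and at 16401 in line #7. P12 rose above Resistant in 6 of 6 lines, to between 44 and 18598 with a median of 2162, and 45.9% of the mean difference was kept. E-cadherin was thus among the members that came back in part, and each P12 sample was under the Parental sample of its line. In the list of adherens junction and epithelial adhesion genes, Spint2, an inhibitor of membrane serine proteases, kept 77.5%, with a Parental median of 7314, a Resistant median of 530 and a P12 median of 544. Elf3, an epithelial ETS factor, kept 71.8%.

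The integrin genes moved in opposite ways after withdrawal. Itga2, the collagen receptor subunit, had a Parental median of 10697 normalized counts, a Resistant median of 30.3 and a P12 median of 567, and P12 exceeded Resistant in 5 of 6 lines. Itgb6, a subunit of the receptor that activates latent TGF-beta, had a Parental median of 250, a Resistant median of 39 and a P12 median of 7.11, and P12 was under Resistant in 5 of 6 lines. Its P12 difference of -4.27 was larger than its Resistant difference of -1.87, which is a share of 228%, the highest of the 209 genes.

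Beside these genes, markers of other cell types were measured. The summed normalized counts of 15 fibroblast markers had a median of 827 in Parental (range 185 to 28614), 182675 in Resistant (1959 to 578099), 52904 in P5 (473 to 84592) and 38600 in P12 (297 to 156580). For 10 epithelial markers, 5 of which are members, the median sum was 256418 in Parental, 62721 in Resistant, 24330 in P5 and 52851 in P12. The P5 medians cover only lines #3, #7 and #9, so they do not compare with medians of 6 lines. Single epithelial markers differed. Krt19 rose in Resistant of line #7, from 44028 to 98106, and fell in line #3, from 55658 to 26207. Sox9 in P12 was above Parental in every line apart from #6. Epcam was listed at 0 in all Parental, Resistant and P12 samples. The sums of 11 leukocyte markers were 235 to 337 in Parental and 226 to 2929 in Resistant, those of 10 endothelial markers 436 to 564 and 328 to 3049, and those of 15 acinar and endocrine markers 75.8 to 315 and 34.1 to 609. In P12 they were 247 to 316, 292 to 1329 and 129 to 1032. The part of these markers in the loss of the 209 genes was not tested.

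Keratins and cytoskeletal proteins were 14 of the genes, with a median difference of -4.32 in Resistant and -3.65 in P12 and a median share kept of 88.5%. Krt7, the keratin of simple ductal epithelium, had 16323 to 63730 normalized counts in Parental apart from 142 in line #9. In line #3 it went from 63730 in Parental to 6278 in Resistant, 25.2 in P5 and 42.3 in P12, so that it was lower without the drug. In line #7 it went from 39499 to 150, and back to 14610 in P5 and 8665 in P12. P12 was under Resistant in 4 of 6 lines, and 155% of the mean difference was kept. In line #9 it rose from 142 to 370 in Resistant and was at 29.3 in P12.

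Krt20 and Krt23, keratins of gastrointestinal epithelium, lie 39823 bases apart on chromosome 11. Krt20 had a Parental median of 3249, a Resistant median of 12.9 and a P12 median of 7.01, and 3842 in P12 of line #10. Krt23 had a Parental median of 1889, a Resistant median of 5.71 and a P12 median of 15.9, and 1116 in P12 of line #10. Both had their highest P12 value in line #10. With Krt79, 4 of 18 expressed keratins (22.2%) were members.

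Transcription factors were 23 of the genes, with a median difference of -4.89 in Resistant, -3.2 in P12 and -3.15 in P5, and 6 of them kept under 50%. Hnf4a, a nuclear receptor of gut and liver epithelium, had 8546 to 15464 normalized counts in 5 Parental samples and 50 in line #9. In Resistant it had 0 to 7.01 in 5 lines and 713 in line #7. P12 had 11090 in line #7 and 7353 in line #10, but 358 in #3, 414 in #4, 1.47 in #6 and 0 in #9. P5 had 229 in line #3, 9366 in #7 and 0.649 in #9. P12 of lines #7 and #10 thus lay far above the other 4 P12 samples.

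Foxa3, a forkhead factor of endoderm, had a Parental median of 120 and a P12 median of 8.15. It is named after its values were seen. Pdx1, the master regulator of pancreas development, was among the factors that came back further. Parental samples had 955 to 1868, Resistant samples 0 to 416 and P12 samples 2.42 to 1453, P12 exceeded Resistant in 6 of 6 lines, and 45% was kept. Hhex, a homeobox factor of foregut and pancreas, kept 49.1%, with 279 to 1865 in Parental, 23.6 to 263 in Resistant and 141 to 536 in P12.

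Sox17 and Prdm16 did not return. Sox17 had 60.8 to 1794 normalized counts in 5 Parental samples and 0 in line #9, up to 9.68 in Resistant, 0 in all 3 P5 samples and up to 1.88 in P12. Against the 3-read floor, its mean P5 level was at least 223-fold lower than the mean Parental level of lines #3, #7 and #9. That Parental mean rests mostly on line #3, at 1794, with 218 in line #7 and 0 in line #9. Prdm16, a zinc finger factor, had 227 to 773 in 5 Parental samples and 18.9 in line #9, a Resistant median of 1.38 and a P12 maximum of 4.82. Sox13 was the opposite, with a Resistant median of 2.48 and P12 values of 1325 in line #10, 1058 in line #9, 324 in #3 and 309 in #7, but 7.89 in #4 and 4.46 in #6. In line #9 this was above its Parental value of 214. Over the 23 factors the median P12 difference was -3.87 in line #3, -4 in #4, -3.75 in #6, -2.03 in #7, -2.42 in #9 and -1.77 in #10. Of 16 other expressed genes in a list of pancreatic and foregut factors, 2 were lower in Resistant, none was called in P12, and the medians were -1.11 and -0.56.

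**Figure D5:**
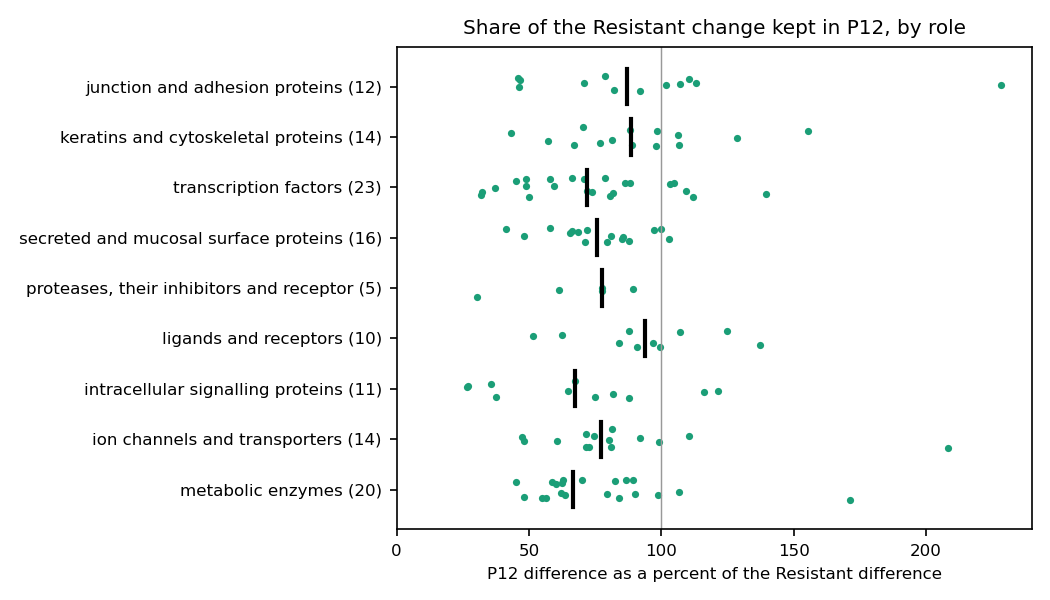
Share of the Resistant difference kept in P12, in percent, for 125 of the genes by role (1 point per gene, with vertical scatter for display, black bars at the median, the grey line at 100%). The medians lie between 66.7% for metabolic enzymes and 93.8% for ligands and receptors, and the spread within each role covers most of the range, with Itgb6 at 228%.

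Secreted and mucosal surface proteins were 16 of the genes, with a median of -6.09 in Resistant and -4.23 in P12. Wfdc2, a secreted protease inhibitor of epithelia, had 836 to 28346 normalized counts in Parental. In line #7 it stayed at 5819 in Resistant, 6369 in P5 and 7612 in P12, while in the other lines P12 had 1.01 to 158. Muc1, the transmembrane mucin, had a Parental median of 7104, a Resistant median of 56.7 and a P12 median of 127, with 2762 in P12 of line #7. Ctse, a gastric aspartic protease, had 0 to 19.8 in Resistant and 6488 in P12 of line #10, and 2.92 to 327 in the other P12 samples. Plac8 was kept in line #7, with 18220 in Parental, 10258 in Resistant and 16267 in P12, and was at 1.25 to 173 in P12 of lines #3, #4, #6 and #9. Tm4sf4, a tetraspanin-like surface protein, had 16481 in P12 of line #10 and 7440 in line #7 but 9.73 to 23.6 in the others. Wfdc2, Plac8 and Tm4sf4 thus set line #7 apart from lines #3, #4, #6 and #9.

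Among 20 metabolic enzymes the median share kept was 66.7%. Rdh10, which makes retinaldehyde from retinol, had 4811 to 18955 normalized counts in Parental, a Resistant median of 1049 and a P12 median of 1883. In line #7 its Resistant sample, at 12396, was close to the Parental sample, at 13050. Dio3, the deiodinase that inactivates thyroid hormone, was at or under the floor in 5 of 6 Resistant and 5 of 6 P12 samples, against a Parental median of 673. Nat8l, which makes N-acetylaspartate, had 0 to 4.25 in P12, a Resistant median of 12.2 and a Parental median of 115, and P12 was under Resistant in 5 of 6 lines. Ugt1a7c kept 45.3%, but its exons are shared by other Ugt1a genes and its reads may be split between them.

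Of ligands and receptors, 10 genes kept a median of 93.8%, and none kept under 50%. Fgfr4, a receptor for endocrine FGF, had 520 to 1677 normalized counts in 5 Parental samples and 1.89 in line #9. Its Resistant samples had 0 to 29.4 and its P12 samples 0 to 16.6. Ihh, a hedgehog ligand, had 20.6 to 2095 in Parental, 2.82 to 10.5 in Resistant, 10.7, 10.2 and 4.87 in P5 and 6.6 to 13.6 in P12, with no overlap between Parental and the rest. Bmp8b had a Parental median of 85.4 and P12 values of 5.7 to 8.46. Sema4d, a semaphorin, rose in line #9 from 314 in Parental to 1654 in Resistant and was at 295 in P12, while in the other 5 lines Resistant had 74.4 to 528 and Parental 732 to 1431. Sema6b kept 51.7%, with 326 in P12 of line #7 and 436 in line #10 and 13.6 to 89.3 in the others. Cxcl5, a neutrophil chemokine grouped with the secreted proteins, fell in Resistant with an SD over lines of 0.58 around -6.2, and was above Resistant in P12 in 6 of 6 lines.

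Among 5 genes for proteases, their inhibitors and a receptor, all 5 were low in P5 in 3 of 3 lines. Tmprss2, a membrane serine protease, had a Parental median of 2540 normalized counts, a Resistant median of 15.9 and a P12 median of 23.3. Among 11 intracellular signalling proteins, Homer2, a scaffold of the synapse and of calcium signalling, had 598 to 4702 in 5 Parental samples and 15.8 in line #9. It had 0 to 16.3 in Resistant and 0.536 to 1.67, all at or under the floor, in P12. Sigirr, which restrains interleukin and Toll-like receptor signalling, kept 27%, with 0.889 to 23.9 in Resistant and 33.5 to 1221 in P12, above its Parental sample of 528 in line #10.

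Ion channels and transporters were 14 of the genes. Clic6 had a Parental median of 1901 normalized counts, 0 to 4.12 in Resistant, and in P12 898 in line #7 and 1111 in line #10 but at most 1.76 in the others. Aqp5, the water channel of secretory glands, had 481 to 12229 in Parental and 0 to 394 in P12. Among genes outside this role, Gjb2, which encodes the gap junction protein connexin 26, was at or under the floor in 6 of 6 P12 samples, against a Parental median of 52.4. Pkhd1, which encodes fibrocystin of the primary cilium in duct cells, had 487 in P12 of line #7 and 255 in line #10, and at most 1.61 in the others. The AL591207.3 transcript had a Parental median of 515 and 25.7 in P12 of line #7.

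Of imprinted genes, Nnat was at or under the floor in all 6 Resistant and all 6 P12 samples, the only one of the 209. Its Parental samples had 36.7 to 151 normalized counts in 5 lines and 1.78, also under the floor, in line #10. Meg3, a maternally expressed long non-coding RNA, was lost in 5 lines, to 3.48 to 10.4 in Resistant and 2.77 to 6.49 in P12. In line #4 it rose from 89.5 in Parental to 5840 in Resistant and 11280 in P12. Dio3, described above, is of the same imprinted domain and was at 0 in Resistant and in P12 of line #4. Among 33 other expressed imprinted genes 1 was lower and 1 higher in Resistant, none was called in P12, and the medians were -0.31 and -0.51.

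The remaining named genes came from lists with 1 or 2 members. Snai3, a member of the Snail family, had 107 in P12 of line #7 and 93.7 in line #10 and at most 4.02 in the others, against a Parental median of 205. Col27a1, a fibrillar collagen, rose in line #9 from 103 to 1278 in Resistant, and its P12 samples had 60.4 to 1792 against a Parental median of 3172. S100a7a had 2159 in P12 of line #7, above its Parental 1561, and 8.89 to 74.2 in the others. S100g was at or under the floor in 5 of 6 Resistant and 5 of 6 P12 samples, but was itself under 50 in 4 of 6 Parental samples.

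The lists of MAPK output and feedback and of the DNA methylation machinery held no member. Of 38 genes of MAPK output and feedback, 17 were lower and 1 higher in Resistant, with a median of -2.02, and none was called in P12 against Parental, with a median of -0.04. In P12 against Resistant 15 of the 38 were higher and 1 was lower. Of 21 expressed genes of the DNA methylation machinery, none was lower and 1 was higher in Resistant, and the median was -0.07. The list of EMT regulators and mesenchymal genes held 1 member, Snai3. Of its 32 other expressed genes, 2 were higher and none lower in Resistant, and none was called in P12. Their medians were 1.78 in Resistant and 1.58 in P12.

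Of the 209 genes, 204 could be placed in the genome by name. Protein-coding genes were 93.1% of them, against 80.3% of the expressed genes. The members needed a mean Parental value of at least 50 and the expressed genes did not, so nothing is read from this. Among the 204 genes, 13 pairs, of 23 genes, had no expressed gene between them. The share of such pairs for other sets of expressed genes was not computed, so nothing is read from this count. Tcp11l1 and Depdc7 lie 9614 bases apart on the minus strand of chromosome 2, and differed from Parental by -2.66 and -2.88 in Resistant and by -3.58 and -3.23 in P12. The expressed genes on either side, Cstf3 and Qser1, were at -0.03 and 0.3 in Resistant and at 0.08 and -1.67 in P12. Depdc7 had 353 to 2389 normalized counts in Parental, 51.2 to 257 in Resistant, 149, 251 and 31.1 in P5 and 16.1 to 373 in P12, so that its P12 sample of line #10 just overlapped the lowest Parental sample. Kif12 lies between Ambp and Col27a1 on chromosome 4, and both are members. Here a flanking gene changed too. Zfp618, beyond Ambp, was at -7.96 in Resistant and -3.37 in P12. Orm3, beyond Col27a1, was at -0.68 and 1.74, but its mean Parental value was only 2.65. Of the 13 pairs 4 overlap, and without a stated strand setting their reads may be shared. Depdc7, Ambp and the flanking genes are named after their values were seen.

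The groups overlapped for most genes. Every Parental sample was above every Resistant and P12 sample for 15 of the 209 genes, or 44 of the 12655 genes with a mean Parental value of at least 50 (0.348%). Without line #9 this held for 72 of the 209, or 240 of the 12655 (1.9%). The rule used these values, so nothing is read from either count. Hyal2, which encodes a hyaluronidase and is named after its values were seen, shows how small a change could be and still be kept in every line. It had 2158 to 3550 normalized counts in Parental, 846 to 1382 in Resistant, 763, 1475 and 1032 in P5 and 812 to 1276 in P12, with an SD over lines of 0.31 around the P12 difference of -1.32. Its P5 minus Parental difference was -1.36 (SE 0.22, adjusted p = 0.0131, limma), which misses the threshold of 0.01. It passed once cell line was added as a block, with an adjusted p of 0.00953 (limma).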

How the data were processed

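RNA-seq libraries (TruSeq Stranded mRNA) of 21 samples were sequenced on 2 instrument models that the sources do not assign to samples. The authors trimmed with Skewer, quantified with Salmon 0.12 and deposited signal values, namely gene counts normalized with DESeq2 1.18 (mm10 per the labels, CASAVA 2.17 and bcl2fastq 2.19). Whole reads could not be recovered, so depth was estimated from the most common low value of each sample.

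The members, roles and lists were chosen with earlier results of these data known. Differences are on log2(value + 1). The 19300 genes that reached 10 in 3 or more samples entered limma 3.58.1 (R 4.3.3, eBayes with a trend, Benjamini-Hochberg over all genes) in one fit of 4 states. Calls needed an adjusted p below 0.01 and a log2 difference past 1. Differences within a line are means over lines, and fitted P5 differences compare 3 samples with 6. Since the p-values rest on 1 culture per line and state, they measure the spread between lines. The steps were tested on simulated data.

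Samples of one cell line are paired. Their deviations from the state means correlated with r over 0.1 in 17 of 18 pairs, and Parental and P12 of line #3 with r = 0.00819. With the line as a block, Kif12 lost its P5 call against Parental and Hyal2 gained one.

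Named genes were, among members, the 12 lowest in P12, the 6 highest in Parental, up to 3 per list (marker lists aside) by Parental value, the 4 highest and 4 lowest in P12 minus Resistant, the 4 highest in P5 minus P12, those nearest the threshold and those under the floor throughout. Predicted transcripts were counted but not named. The alternatives were pseudocounts of 0.5 and 8, other filters, upper quartile rescaling, the block, no trend, an adjusted p below 0.05, fits of only the compared states, leaving out each line and other thresholds of the rule. The block with lines #3, #7 and #9 only was added after seeing the data. Positions are from GENCODE M21 and promoter windows from RefSeq. Some items, alleles among them, are not reported here.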

Additional observations from a re-analysis of the deposited data

Results flagged for a closer look

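Among 6 samples of a state, the highest or lowest sample lay apart from the other 5 in 34 of 186 groups tested over 62 genes, by a gap past Dixon's 95% critical value. For 6 samples drawn alike about 1 in 20 groups would pass, but values of different genes in one sample are not independent. The rule also chose the members by values of these same samples and lets each gene miss in 1 line. Nothing is therefore read from the number of groups. The sample set apart was Parental in 21 cases, Resistant in 5 and P12 in 8, and it was of line #9 in 19.

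Parental of line #9 was the low sample, in normalized counts, for the junction and surface genes Cdh1 (816), Marveld2 (11.1), Itga2 (686), Spint2 (887), Tmprss2 (9.26) and Tmem102 (10.6), for the keratins Krt7 (142) and Krt23 (3.98), and for the factors Hnf4a (50.04), Prdm16 (18.9) and Snai3 (22.6). It was also low for Homer2 (15.8), Clic6 (11.9), Fgfr4 (1.89), Ctse (47.8), Sema6b (80.4), Ugt1a7c (56.5), Pkhd1 (16.8) and Plek2 (234), the last of which is just outside the rule. Parental of line #7 was the high sample for Ocln (2969), and Parental of line #10 the low one for Nnat (1.78).

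In Resistant, line #7 was high for Hnf4a (713) and Cdx2 (40.7), line #4 for Meg3 (5840) and Ccdc3 (8.15), and line #10 for Dio3 (3.33), where the other 5 samples were at 0. In P12, line #10 was high for Cldn6 (4.15) and Kif12 (12.3), line #7 for AL591207.3 (25.7) and Dio3 (34.7), line #4 for Meg3 (11280), and line #3 for Sox17 (1.88). For Cldn6, Kif12 and Sox17 the other P12 samples were at 0, so any value above 0 would be set apart. The Sox17 value was under the 3-read floor of its sample, 2.63. The low P12 samples were line #7 for Nat8l (0) and line #6 for Paqr8 (15.1), which is also just outside the rule. What set these samples apart was not tested.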

How the results depend on the processing

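The 3 medians over the 209 genes that were recomputed (P5 minus Parental, P12 minus Resistant and the share kept) and the 6 called P5 differences kept their direction, and these medians moved by less than the spread between lines. The number of genes that met the rule was 47 when 6 of 6 lines were asked, 551 with 4 of 6 and 62 with a difference of -2 or lower. With 1 line left out it ran from 47 to 364, and it was 356 without line #7, 364 without #9 and 362 without #10 when 4 of 5 lines were asked. Genes lower in P5 than in Parental (4) were 8 at an adjusted p below 0.05, 6 after upper quartile rescaling, 1 with the compared states alone, 1 with P5 of line #3 alone, 4 with the cell line as a block, 1 with the block in lines #3, #7 and #9 only, and 1 to 5 with 1 line left out (1 without #7, 2 without #3 or #6). Genes higher in P5 than in Resistant (2) were 5 at an adjusted p below 0.05, 0 with a pseudocount of 8, 1 with no filter on low values, 1 with the block, 1 with the block in those 3 lines, 0 with the compared states alone, 0 with P5 of line #3 alone, and 0 to 1 with 1 line left out. Genes higher in P12 than in Resistant (4) were 12 at an adjusted p below 0.05, 2 with a pseudocount of 8, 17 with the block, 2 with the compared states alone, and 2 to 6 with 1 line left out (2 without #7, 6 without #9). None of the 209 was called between P5 and P12 by limma under any of them. Over all genes at an adjusted p below 0.05, 8 were lower in P5 than in Parental and 223 higher than in Resistant. In P12, 559 of all genes were higher than in Resistant. With the block these 3 counts were 4, 84 and 486. The median of all genes, close to 0, did change sign where a mean of at least 100 was asked, from 0.03 to -0.06 for P12 minus Parental. The cause of these shifts was not tested, apart from the fewer samples of some fits. Depth limits genes near the 3-read floor, where 31 of the 209 lay in at least 4 Resistant and 4 P12 samples.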
